A study of Homo sapiens with 8 samples.

Results

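Olfactory receptor genes of chromosome 11 were examined for peaks of SOX2, OCT4 and NANOG, the transcription factors that maintain pluripotency. ChIP-seq had been run in cells of 2 pluripotent human lines: H9 is of embryonic stem cells, and NT2/D1 is of embryonal carcinoma cells from a germ cell tumour. The labels name no further treatment, genotype or time for either line, and each factor had 1 library per line with an IgG control. A peak was taken as a member where the gene listed on either side of it bore an olfactory receptor symbol (OR, digits, letters, digits), lay on chromosome 11 and had its start within 20000 bp. This gave 228 member peaks of 8402 on chromosome 11 and of 201619 in all 6 lists, near 110 receptors. Positions are on hg19.

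Olfactory receptors are G protein-coupled receptors of the sensory neurons of the nose, and together they form a very large gene family. Each neuron expresses a single receptor allele, while the other receptor genes lie silent in heterochromatin. The coding sequence of a receptor sits in 1 exon, the genes stand in long clusters, and those of class I (families 51, 52 and 56 among others) form a cluster on the short arm of chromosome 11. Expression was not measured in these libraries, so whether any receptor was transcribed in H9 or NT2/D1 was not tested.

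The stretches before the starts of these genes are rich in A and T. The 135 promoter windows of chromosome 11 receptors in the RefSeq table (GRCh38.p14, 250 bases before to 50 after the start) had a median GC content of 37%, against 59.3% in 1355 windows of other chromosome 11 genes and 58.3% in all 27305. The annotated start was itself an ATG, the first codon of a protein, in 64 receptor windows (47.4%) and in 36 of the other chromosome 11 windows (2.66%). For such receptors a distance to the start may therefore be a distance to the coding sequence. Of the 130 receptors with a start recovered from the lists, 106 had a window in the table and 51 of these began with ATG. The windows of 4 receptors that the results turn on are shown, since they illustrate both kinds of start. The capitals mark the 3 bases at the annotated start, and each window reads 5′ to 3′ on the gene's own strand.

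OR5AR1: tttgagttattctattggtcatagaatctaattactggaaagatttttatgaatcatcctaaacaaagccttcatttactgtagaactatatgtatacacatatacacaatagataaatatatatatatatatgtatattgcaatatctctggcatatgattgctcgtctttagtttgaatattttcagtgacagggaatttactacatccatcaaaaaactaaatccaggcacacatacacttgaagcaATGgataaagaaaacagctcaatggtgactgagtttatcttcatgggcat
OR8K1: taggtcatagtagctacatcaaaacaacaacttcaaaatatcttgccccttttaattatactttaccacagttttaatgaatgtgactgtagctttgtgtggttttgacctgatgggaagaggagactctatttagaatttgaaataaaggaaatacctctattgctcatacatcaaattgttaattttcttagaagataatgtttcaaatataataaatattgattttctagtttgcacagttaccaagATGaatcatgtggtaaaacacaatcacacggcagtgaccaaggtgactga
OR5F1: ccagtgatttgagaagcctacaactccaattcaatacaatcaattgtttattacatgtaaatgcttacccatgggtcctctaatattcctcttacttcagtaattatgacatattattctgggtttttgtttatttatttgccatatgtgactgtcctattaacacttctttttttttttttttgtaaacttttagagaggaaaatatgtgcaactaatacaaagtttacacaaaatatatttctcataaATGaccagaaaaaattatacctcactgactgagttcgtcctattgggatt
OR6A2: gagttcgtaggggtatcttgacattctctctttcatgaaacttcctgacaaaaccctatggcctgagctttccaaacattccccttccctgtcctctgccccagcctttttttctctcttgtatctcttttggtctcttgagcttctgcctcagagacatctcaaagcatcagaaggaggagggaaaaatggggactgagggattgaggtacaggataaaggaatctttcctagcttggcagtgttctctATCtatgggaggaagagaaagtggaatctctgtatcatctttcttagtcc

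The first 3 windows have their annotated start at an ATG and have GC contents of 30.3%, 32.3% and 30%. OR6A2 begins at ATC, with a GC content of 45.3%. A pair of motifs was searched on both strands in every window: the octamer ATGCAAAT, the recognition sequence of OCT4, and ACAATG, a core sequence of SOX proteins. The octamer was present in 5 receptor windows (3.70%) and in 492 of all windows (1.802%). The SOX core was present in 24 receptor windows (17.8%) and in 2996 of all windows (10.97%). The printed windows hold neither. The table's starts may differ from those of the submitters' annotation, and the windows were not placed on hg19. Base composition differs between the sets, and its part in these shares was not tested. Peak sequences on hg19 were not read here.

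The lists differ in ways that touch every count below. The libraries had 54046559 to 77649240 unique tags in H9 and 10218752 to 23160564 in NT2/D1, and a peak held a median of 32 to 46 tags in H9 lists but 7 to 11 in those of NT2/D1. The NT2/D1 lists were the longer ones, with 34208 to 46169 peaks against 19349 to 33895. Peak calling used a band width of 2000 in H9 and 200 in NT2/D1. The 3 H9 lists shared an IgG control of 58012070 unique tags, and NT2/D1 SOX2 and NANOG shared one of 2937004. The control of NT2/D1 OCT4 had 6479071. Which of these NT2/D1 controls is the labelled IgG sample was not worked out. The cell line, the depth and the calling cannot be told apart, and with 1 library per factor and line there was no replicate error and no test between lists. The tags, fold and score of a peak were set by the authors and rank peaks only within a list. The Wilson (95%) and exact Poisson intervals given cover counting error only. The titles and source names of the NT2/D1 libraries disagree on which is OCT4 and which NANOG, and the titles were followed.

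Peaks near receptors were few in H9 and more frequent in NT2/D1. In H9 they numbered 16 of 831 chromosome 11 peaks for SOX2 (1.93%, interval 1.19 to 3.10), 17 of 1337 for OCT4 (1.27%, 0.795 to 2.03) and 26 of 1614 for NANOG (1.61%, 1.10 to 2.35). In NT2/D1 they numbered 54 of 1318 for SOX2 (4.10%, 3.15 to 5.31), 61 of 2000 for OCT4 (3.05%, 2.38 to 3.90) and 54 of 1302 for NANOG (4.15%, 3.19 to 5.37). The 3 H9 lists thus held 59 member peaks and the 3 NT2/D1 lists 169. The intervals of H9 SOX2 and NT2/D1 OCT4 overlapped, and those of H9 OCT4 and H9 NANOG lay below all 3 of NT2/D1.

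Counted by gene, receptors had a peak less often than other genes in the H9 OCT4 and NANOG lists. Starts were recovered from the authors' distances for 130 chromosome 11 receptors, 172 receptors of other chromosomes, 1065 other genes of chromosome 11 and 19216 genes in all. In H9 OCT4, 20 of 130 receptors had a peak within 20 kb (15.4%, 10.2 to 22.6), beside 48.8% of other chromosome 11 genes and 44.7% of all genes. In H9 NANOG it was 34 (26.2%, 19.4 to 34.3) beside 46.9% and 42.2%. In H9 SOX2 it was 21 (16.2%, 10.8 to 23.4) beside 22.3% and 22.8%, a difference within the receptors' interval. The gap was thus widest for OCT4 among the H9 lists.

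In NT2/D1 the receptors lay nearer to the background. SOX2 peaks were found near 59 receptors (45.4%, 37.1 to 54.0), beside 43.8% of other chromosome 11 genes and 42.5% of all genes. NANOG peaks were found near 54 (41.5%, 33.4 to 50.1), beside 45.5% and 43.4%. OCT4 peaks were found near 69 (53.1%, 44.5 to 61.4), below the 67.1% of other chromosome 11 genes and 66.2% of all genes. With peaks of an FDR of at most 5%, a limit that takes different parts of each list, the NT2/D1 OCT4 share fell to 12 receptors (9.23%), beside 21.9% of other chromosome 11 genes. Under that limit H9 OCT4 had 11 receptors (8.46%, beside 23.2%) and H9 SOX2 had 12 (9.23%, beside 10.6%), so the Wilson intervals of the OCT4 shares of the lines then overlapped. The SOX2 and NANOG shares of this line are near the background and are no result about receptors.

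Receptors of other chromosomes gave like shares. They had a peak in 18.0%, 18.0% and 19.2% of cases for H9 SOX2, OCT4 and NANOG, and in 44.8%, 40.7% and 42.4% for NT2/D1 SOX2, OCT4 and NANOG. In 4 of the 6 lists this value lay within the interval of the chromosome 11 receptors. The exceptions were H9 NANOG, just below the lower bound of 19.4%, and NT2/D1 OCT4, below the lower bound of 44.5%.

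**Figure D1:**
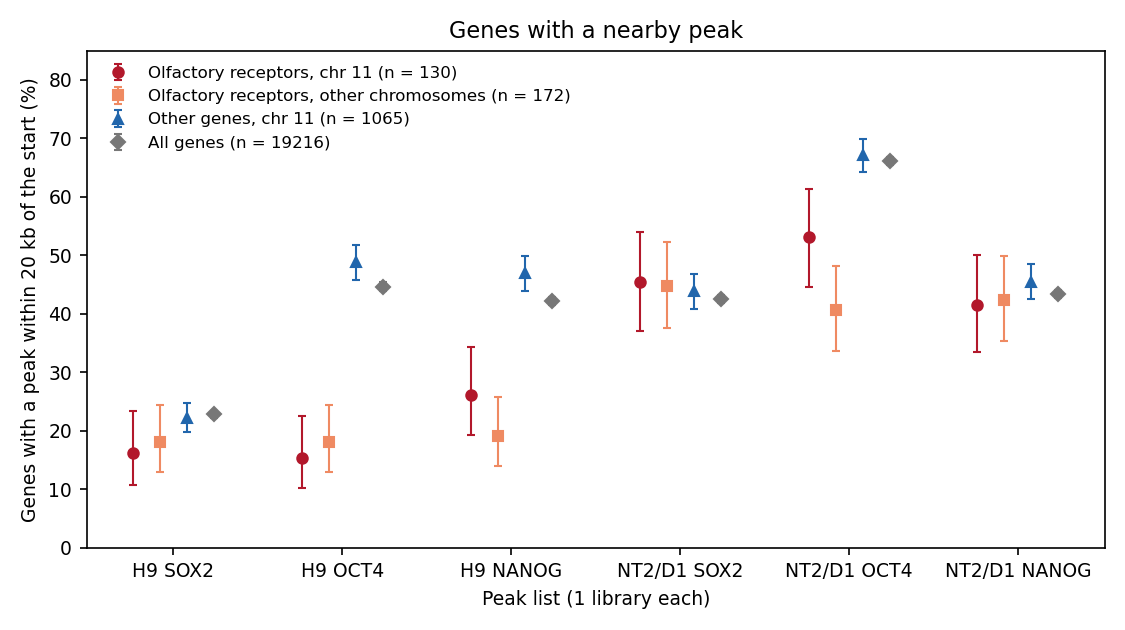
Share of genes (%, vertical axis) with a peak within 20 kb of the start in each of the 6 lists (horizontal axis, 1 library each), for chromosome 11 receptors, receptors of other chromosomes, other chromosome 11 genes and all genes. Bars are 95% Wilson intervals; receptors sit below other chromosome 11 genes for OCT4 in both lines (15.4% beside 48.8% in H9, 53.1% beside 67.1% in NT2/D1) and for NANOG in H9 (26.2% beside 46.9%).

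A start could be recovered only where the lists name the gene beside a peak, and most such naming came from the longer NT2/D1 lists. Starts were recovered for 128 of 171 protein-coding chromosome 11 receptors of the RefSeq table (74.9%, 67.9 to 80.8) and for 997 of 1130 other protein-coding genes of the chromosome (88.2%, 86.2 to 89.98). With every unrecovered gene counted as having no peak, the receptor shares were 12.3%, 11.7% and 19.9% for H9 SOX2, OCT4 and NANOG and 33.9%, 40.4% and 31.0% for NT2/D1 SOX2, OCT4 and NANOG. The shares of the other genes were then 19.3%, 42.9% and 41.2% in H9, with 38.7%, 59.4% and 40.2% in NT2/D1. Receptors were below the other genes in all 6 lists on this count, by the smallest margin for NT2/D1 SOX2. The receptor interval of that list, 27.2 to 41.3, held the share of the other genes. The count lowers receptors more by construction, since fewer of their starts were recovered, so it is no result about receptors by itself.

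Peaks close to a receptor start were few. Within 1 kb of a start there was 1 receptor with a peak for H9 SOX2 (0.769%), beside 3.94% of other chromosome 11 genes and 4.27% of all genes. There was 1 for H9 OCT4 (0.769%), beside 17.7% and 14.9%, and there were 2 for H9 NANOG (1.54%), beside 14.4% and 12.8%. In NT2/D1 there were 5 for OCT4 (3.85%), beside 27.1% and 27.2%. The SOX2 and NANOG lists of NT2/D1 had 7 (5.38%) and 10 (7.69%), beside 6.01% and 7.42% of other chromosome 11 genes and 6.4% and 7.42% of all genes. OCT4 in both lines and NANOG in H9, the lists with frequent peaks at starts of other genes, were those in which receptors stood furthest below.

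Peaks per megabase were also fewer around receptors than around other starts in H9. The 3.852 Mb within 20 kb of a receptor start held 4.15 H9 OCT4 peaks per Mb, against 17.9 within 20 kb of other starts and 7.68 in the remainder of the chromosome. For H9 NANOG the densities were 7.01, 17.4 and 10.5 peaks per Mb. For H9 SOX2 they were 3.89, 6.99 and 6.002. In H9 the receptor stretches were thus 0.541 to 0.668 times as dense as the remainder of the chromosome. The Poisson intervals around receptors were 2.18 to 6.42 for SOX2, 2.37 to 6.75 for OCT4 and 4.62 to 10.2 for NANOG, so that of SOX2 held the value of the remainder.

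In NT2/D1 the receptor stretches held 14.02 SOX2, 15.8 OCT4 and 14.02 NANOG peaks per Mb. Around other starts there were 15.7, 27.3 and 17.9 peaks per Mb, and in the remainder 7.80, 10.97 and 6.95. The receptor stretches were 1.44 to 2.02 times as dense as the remainder. Their intervals, 10.5 to 18.3 for SOX2 and for NANOG, held the values around other starts, while that of OCT4, 12.1 to 20.3, lay below. Stretches were laid around recovered starts, and an unrecovered receptor falls in the remainder, which raises this ratio by construction in the lists that supplied the starts.

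The strength of member peaks was described by the percentile of their score within the whole list, the score being -10 log10 of the p-value. In H9 the median percentile was 65.0 for SOX2 (order-statistic interval 26.7 to 82.5), 75.5 for OCT4 (50.2 to 88.0) and 64.6 for NANOG (45.1 to 78.4). The other chromosome 11 peaks of these lists had medians of 50.5, 50.6 and 47.8. In NT2/D1 the medians were 44.9 for SOX2 (32.02 to 59.3), 38.7 for OCT4 (19.9 to 54.5) and 48.3 for NANOG (40.6 to 60.9), with 48.3, 48.9 and 50.95 for the other peaks. All 6 intervals held the median of the other peaks of their list, and that of H9 OCT4 only just.

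**Figure D2:**
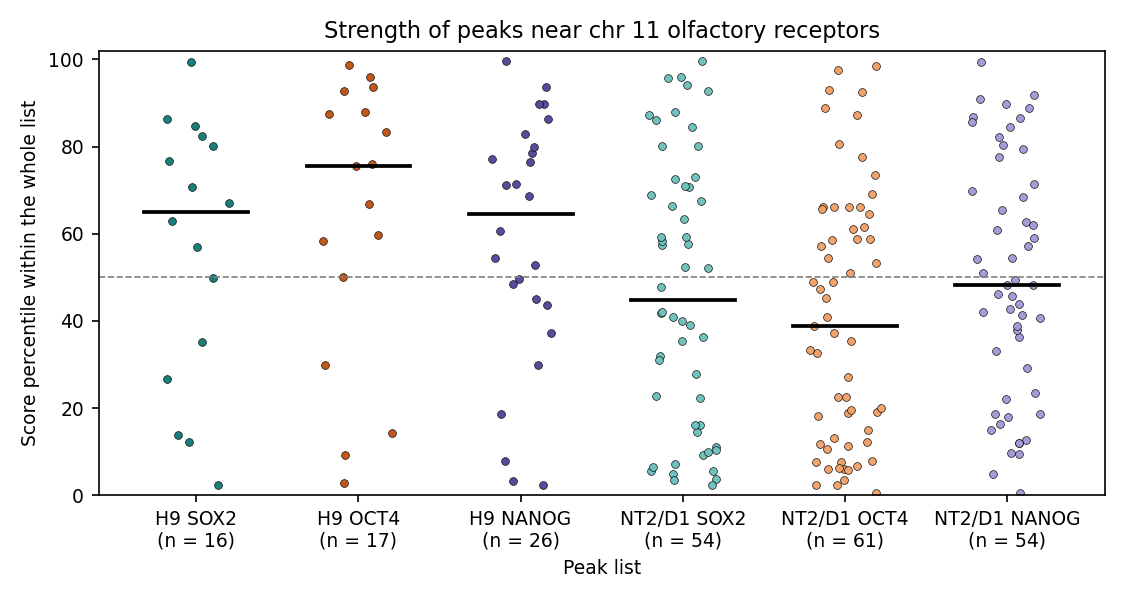
Score percentile of each member peak within its whole list (vertical axis, 0 to 100), by list (horizontal axis); the bar is the median and the dashed line marks 50. H9 medians lie between 64.6 and 75.5 and NT2/D1 medians between 38.7 and 48.3, while each list has members from below 5 to above 98.

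In tags, the H9 members held 16 to 186 (median 55) for SOX2, 15 to 126 (40) for OCT4 and 18 to 231 (50) for NANOG. The NT2/D1 members held 8 to 57 (11), 5 to 23 (6) and 8 to 41 (9) for SOX2, OCT4 and NANOG. Peaks within 3 tags of the lowest count of their list made up 35 of 54 NT2/D1 SOX2 members (64.8%), 52 of 61 OCT4 members (85.2%) and 44 of 54 NANOG members (81.5%). In the whole lists such peaks made up 50.6%, 59.7% and 69.4%. In H9 they were 1 of 16, 2 of 17 and 1 of 26. Most NT2/D1 members therefore rest on few tags.

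Sharing with other lists followed the background of each list in H9. A peak of any other list overlapped 15 of 16 SOX2 members (93.8%), 14 of 17 OCT4 members (82.4%) and 15 of 26 NANOG members (57.7%) of H9. The background on chromosome 11 was 81.6%, 59% and 54.2% in these lists, within the members' Wilson intervals of 71.7% to 98.9%, 58.97% to 93.8% and 38.9% to 74.5%. In NT2/D1 it was 13 of 54 SOX2 members (24.1%, background 25.3%), 12 of 61 OCT4 members (19.7%, background 30.1%) and 5 of 54 NANOG members (9.26%, background 24.7%). The Wilson interval of the NT2/D1 NANOG members, 4.02% to 19.9%, lay below its background, while those of SOX2, 14.6% to 36.9%, and of OCT4, 11.6% to 31.3%, held theirs. The part of the shared IgG controls in these overlaps was not tested.

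Merged where they overlapped, the members formed 178 regions. Of these 154 held members of 1 list, 12 of 2, 7 of 3, 1 of 4, 2 of 5 and 2 of 6. Overlapping peaks that the member rule left out are not counted. With them, the region of 4 lists, near OR10A6, had peaks of 5. There were 24 regions with members in H9 only, 144 in NT2/D1 only and 10 in both lines. No such counts over all chromosome 11 regions stand beside these, so they are no result about receptors. In H9, 9 regions held members of all 3 factors. In NT2/D1, 3 did, but in that before OR8K1 the OCT4 and NANOG peaks of this line do not overlap each other.

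The region with peaks of all 6 lists and the highest scores lay before OR5AR1, a class II receptor gene on the plus strand with its start at 56431162. It spans chr11:56426977-56427875, 3286 to 3638 bp to the 5′ side of that start. In H9 it held 186 SOX2 tags at 25.51-fold enrichment (percentile 99.4), 107 OCT4 tags at 12.58-fold (98.7) and 231 NANOG tags at 37.4-fold (99.7). In NT2/D1 it held 57 SOX2 tags at 20.95-fold (99.7), 23 OCT4 tags at 18.76-fold (98.4) and 41 NANOG tags at 16.01-fold (99.4). It was the member with the highest score in each of the 6 lists, and the 6 summits lay within 61 bp of each other. Its NT2/D1 SOX2 peak nonetheless had an FDR of 34.15%, so a high score does not go with a low FDR in every list. A further NT2/D1 NANOG peak lay 5584 bp to the 3′ side of the start, with 18 tags at 7.04-fold (90.9).

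The other region of all 6 lists lay 4701 to 5321 bp to the 5′ side of OR6A2, a class II receptor of the short-arm cluster, at chr11:6821840-6823006. It held 67 SOX2 tags at 10-fold (86.4), 70 OCT4 tags at 7.97-fold (92.7) and 75 NANOG tags at 8.23-fold (79.9) in H9. In NT2/D1 it held 22 SOX2 tags at 8.13-fold (80.1), 22 OCT4 tags at 19.87-fold (97.5) and 11 NANOG tags at 10.57-fold (91.8). A second, weaker NT2/D1 SOX2 peak in it had 11 tags at 5.23-fold (3.64). With this weaker peak, whose summit was at 6822220, the summits were spread over 349 bp. Those of the other peaks lay between 6822539 and 6822569. The same peaks fall within 20 kb of OR2AG1.

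There were 2 regions with members of 5 lists. That near OR4X1, at chr11:48293934-48294821, lies 8522 to 8799 bp to the 3′ side of the start and was called in all lists but NT2/D1 NANOG. Its H9 peaks held 56 SOX2 tags (80.2), 31 OCT4 tags (75.5) and 87 NANOG tags (93.6), the last at 17.39-fold. Its NT2/D1 peaks held 20 SOX2 tags (27.9) and 16 OCT4 tags (93.0), at 5.28-fold and 13.91-fold. The 5 summits lay within 85 bp.

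That before OR8K1, at chr11:56104227-56105630, was called in all lists but H9 OCT4. Its scores ranged from low to high: 37 SOX2 tags (57.0) and 57 NANOG tags (54.4) in H9, and in NT2/D1 19 SOX2 tags (86.1), 8 OCT4 tags (7.99) and 8 NANOG tags (48.3). A second NT2/D1 SOX2 peak in the region had 10 tags (35.4). The summits of the region were spread over 974 bp. Its NT2/D1 NANOG peak, at 56104464-56104736, and its NT2/D1 OCT4 peak, at 56105155-56105503, do not overlap and are joined through the H9 NANOG peak. The missing factor thus differed between OR4X1 and OR8K1. An absent call is not an absence of tags, since values below the calling threshold are not in the lists.

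**Figure D3:**
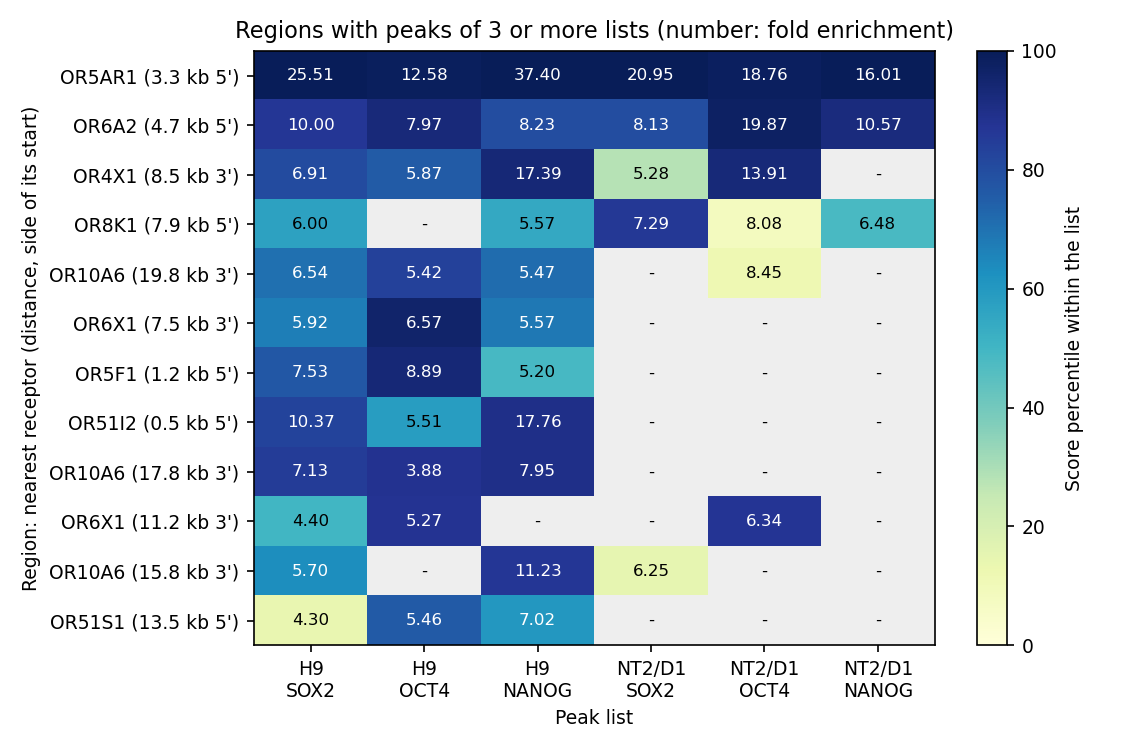
The 12 regions with peaks of 3 or more lists (rows, with the nearest receptor and the least distance in kb to its start) by list (columns). Colour is the score percentile within the list, the number is the authors' fold enrichment and a dash means no member peak. Of several peaks of a list the one of highest score is shown. OR5AR1 and OR6A2 have a peak in every list, and 5 regions have peaks of H9 only.

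Several regions were called for all 3 factors in H9 and for none in NT2/D1. Close to OR51I2, a class I receptor, a region at chr11:5473568-5474246 lay 472 to 678 bp to the 5′ side of the start. It held 54 SOX2 tags at 10.37-fold (82.5), 28 OCT4 tags at 5.51-fold (58.35) and 63 NANOG tags at 17.76-fold (89.8). Before OR5F1, a class II receptor, a region at chr11:55763260-55764003 lay 1159 to 1283 bp to the 5′ side. It held 61 SOX2 tags at 7.53-fold (76.7), 52 OCT4 tags at 8.89-fold (93.6) and 37 NANOG tags at 5.20-fold (48.5). These were the regions of 3 lists nearest to a receptor start. Farther out, before OR51S1, a class I receptor, 43 SOX2 (13.9), 40 OCT4 (76.0) and 47 NANOG tags (60.5) lay 13493 to 13635 bp away, with summits within 11 bp. The SOX2 peak there was weak, with an FDR of 22.82%.

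The stretch to the 3′ side of OR10A6 held several neighbouring regions. Of 12 member peaks nearest to this receptor, 9 were from H9, all between 7929621 and 7939950. At chr11:7931009-7932376 they held 109 SOX2 tags (84.8), 106 OCT4 tags (88.0) and 118 NANOG tags (89.7). At chr11:7929621-7930415 they held 54 SOX2, 48 OCT4 and 56 NANOG tags, and NT2/D1 OCT4 had 6. All these peaks share 1 nearest receptor, so they are not independent of each other as members.

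The 12 regions of 2 lists were mostly of lower score. At OR52E4, a class I receptor, an NT2/D1 SOX2 peak of 23 tags at 9.20-fold (95.7) and an OCT4 peak of 12 tags at 6.97-fold (32.8) overlapped 15162 bp or more to the 3′ side of the start. Before OR5A2, a class II receptor, H9 had 83 NANOG tags (82.9) and 62 SOX2 tags (35.3). At OR51F1, OCT4 peaks of both lines overlapped, with 37 tags in H9 (66.8) and 5 in NT2/D1 (66.2). OR10W1 had NT2/D1 SOX2 and NANOG peaks 766 and 847 bp to the 3′ side of its start, with 12 and 10 tags. At OR9G1 the NT2/D1 SOX2 and OCT4 peaks held 11 and 5 tags and lay in the lowest part of their lists (7.24 and 11.4). A single-list peak of NT2/D1 SOX2 before OR5M11, with 17 tags at 8.33-fold (95.9), ranked above all of these. Its FDR was 13.6%, and that of the NT2/D1 SOX2 peak at OR52E4 was 13.35%.

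Some members stand beside a gene of another family. The strongest H9 OCT4 members after OR5AR1 included a peak of 108 tags at 6.57-fold (96.1), 7523 bp from OR6X1 and 4171 bp from the start of ZNF202, a zinc-finger gene. Another OR6X1 region, with members of H9 SOX2, H9 OCT4 and NT2/D1 OCT4, lay 43 to 1433 bp from that start. With peaks that the member rule left out, it had peaks of 4 lists. In a region near OR2D3 the H9 OCT4 peak lay 12 bp and the NT2/D1 SOX2 peak 269 bp from the start of ZNF215, also a zinc-finger gene. In 213 of the 228 members a receptor was the nearer of the genes listed, and in 49 (21.5%) a pair of receptors lay within 20 kb.

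Where a member peak lay close to a receptor start it was usually an NT2/D1 peak on the 3′ side, towards the coding exon. NT2/D1 held 169 of all 228 members. Sides were not counted for other genes, so no background stands beside this split. Within 1 kb there were 27 members, 4 in H9 and 23 in NT2/D1, at 21 receptors. Of those in NT2/D1, 19 lay on the 3′ side, 3 on the 5′ side and 1 over the start. The last was a SOX2 peak at OR5B12, with 15 tags at 9.37-fold (87.9). OR5B17, of the same subfamily, had a NANOG peak 159 bp to the 3′ side, with 13 tags at 9.07-fold (89.9). OR52A5 had a SOX2 peak of 14 tags at 214 bp (84.6), OR10Q1 a NANOG peak of 12 tags at 208 bp (77.7) and OR51F1 an OCT4 peak of 8 tags at 598 bp (77.7). None of these 5 peaks was shared with another list. OR8H1 had peaks on its 3′ side in both lines that did not overlap, with 43 NANOG tags in H9 and 11 SOX2 tags in NT2/D1.

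Over the whole window, H9 members within 5 kb lay mainly on the 5′ side of the start, 18 of 21, with 3 on the 3′ side. In NT2/D1, 29 of 72 lay on the 5′ side and 42 on the 3′ side. From 15 to 20 kb the H9 counts were 1 and 10, and 10 and 15 in NT2/D1. Whether peaks near other genes are split by side in the same way was not tested. The H9 counts are of few places, since 59 peaks merge into 34 regions and several of the 5′ peaks belong to OR5AR1, OR6A2, OR5F1 and OR51I2. Across the limit itself, the members nearest to it inside were at OR10A6 (19919 bp, 48 tags), OR52A1 (19969 bp, 8 tags) and OR4A47 (19981 bp, 5 tags). The nearest outside were at OR8B12 (20102 bp, 5 tags), OR6X1 (20163 bp, 83 tags) and OR10A6 (20229 bp, 8 tags).

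**Figure D4:**
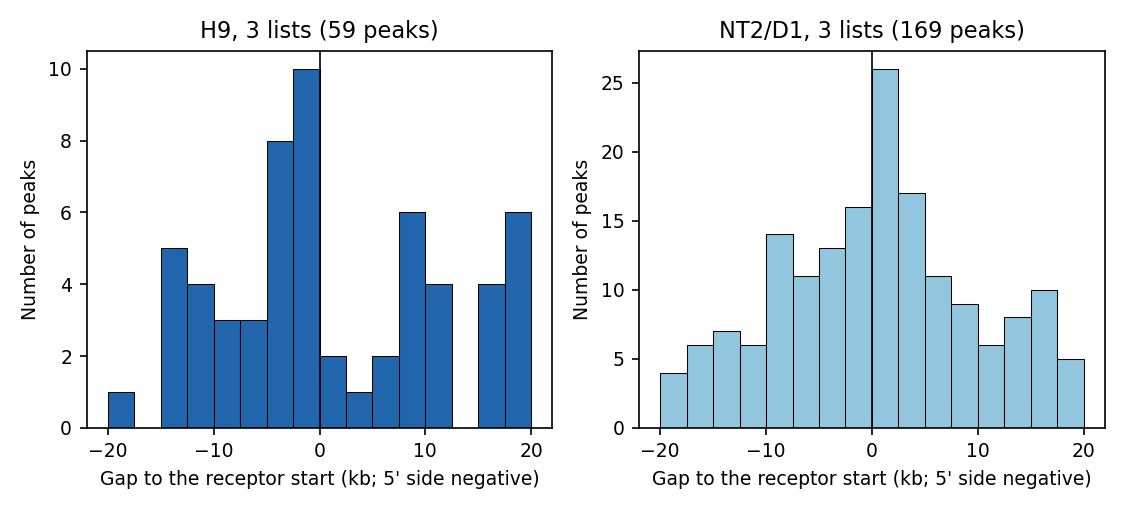
Number of member peaks (vertical axis) by signed gap between the peak and the receptor start (horizontal axis, kb in bins of 2.5, 5′ side negative), for the 59 peaks of the 3 H9 lists and the 169 of the 3 NT2/D1 lists. Within 5 kb the H9 peaks are mostly on the 5′ side (18 of 21), and those of NT2/D1 are more often on the 3′ side (42 of 72). Sides were not counted for other genes.

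The receptors formed 8 clusters, split where neighbouring starts were more than 1000000 bp apart. The short-arm cluster from OR52B4 to OR10A6 (4389525 to 7950209) held 55 receptors and 121 member peaks, 33 in H9 and 88 in NT2/D1. The cluster from OR4C15 to OR5AK2 (55321783 to 56756388) held 32 receptors and 55 peaks, 13 and 42. That from OR9Q1 to OR10V1 (57791353 to 59481318) held 21 receptors and 23 peaks, 4 and 19. No H9 OCT4 peak was near any receptor of the last. The cluster from OR6X1 to OR8A1 had 11 receptors and 11 peaks, that from OR4B1 to OR4A47 had 7 and 14, and the remaining 3 had 4 peaks between them near OR4C12 and OR2AT4 and none near OR4A5 and OR4C46.

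**Figure D5:**
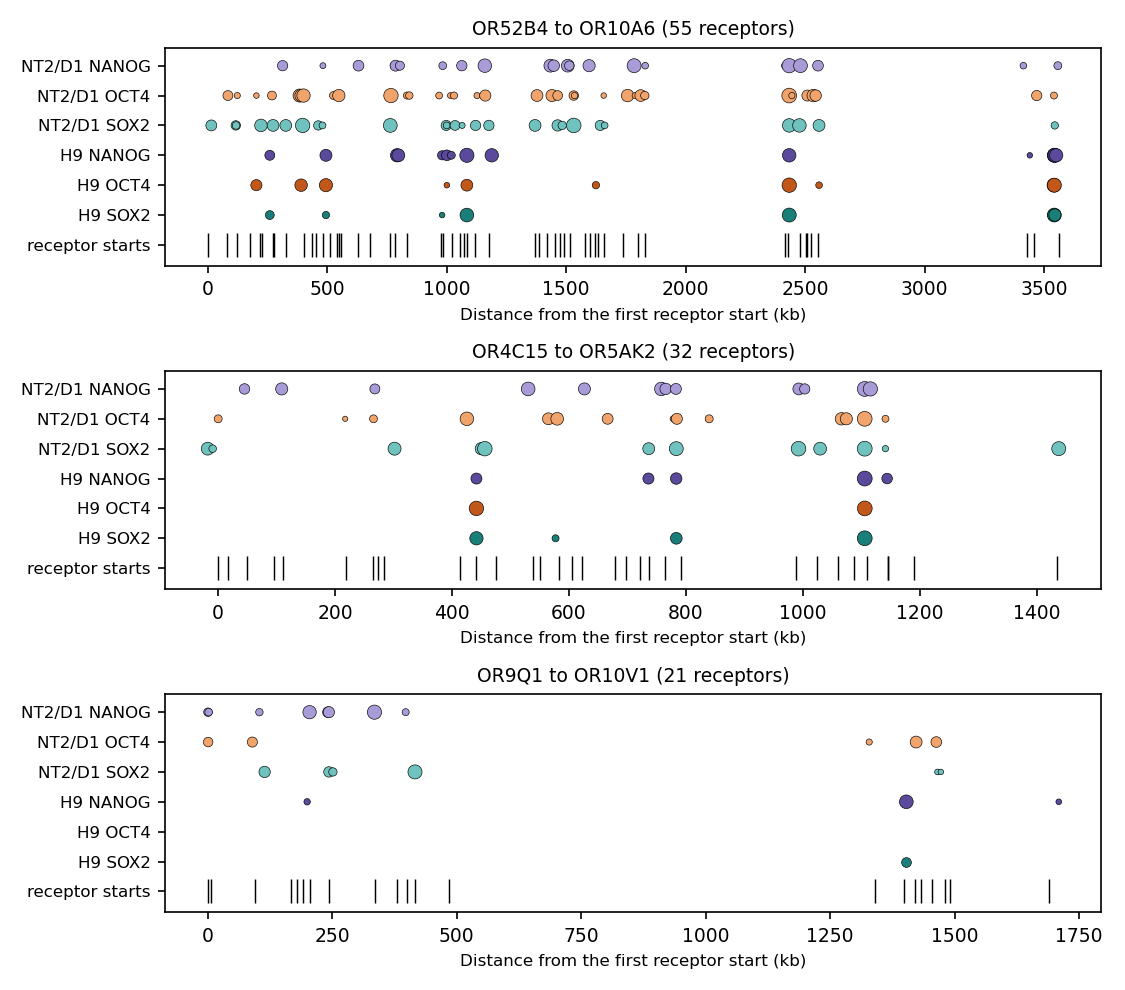
Member peaks of each list along the 3 clusters with over 20 receptors (horizontal axis, kb from the first receptor start); ticks in the lowest line are receptor starts and a larger point means a higher score percentile within its list. H9 peaks stand at fewer places than those of NT2/D1, which are spread along the clusters. Over all clusters, 9 of 34 H9 regions held members of all 3 factors.

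All 45 class I receptors lay in the short-arm cluster, with 10 of the 85 of class II. Class I receptors had an NT2/D1 SOX2 peak in 27 cases (60%, 45.5 to 73.0) and an OCT4 peak in 30 (66.7%, 52.1 to 78.6). Class II receptors had them in 32 (37.6%, 28.1 to 48.3) and 39 (45.9%, 35.7 to 56.4). Other chromosome 11 genes had them in 43.8% and 67.1%. The class I interval lay above this share for SOX2 and held it for OCT4. The class II interval held it for SOX2 and lay below it for OCT4. For NT2/D1 NANOG it was 19 (42.2%) and 35 (41.2%), beside 45.5%. In H9, 8, 9 and 11 class I receptors (17.8%, 20% and 24.4%) had a SOX2, OCT4 and NANOG peak. Those of class II were 13, 11 and 23 (15.3%, 12.9% and 27.1%), beside 22.3%, 48.8% and 46.9% of other chromosome 11 genes. Class and cluster cannot be told apart here, and neighbouring receptors can share 1 peak.

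By receptor, 18 of 130 had no peak within 20 kb in any list, 40 had one in 1 list, 37 in 2, 15 in 3, 8 in 4, 6 in 5 and 6 in all 6. Those of all 6 were OR51B6, OR2AG1, OR6A2, OR10A6, OR5AP2 and OR5AR1. OR2AG1 and OR5AP2 owed this largely to the peaks next to OR6A2 and OR5AR1. OR51B6 had peaks at different places, among them an NT2/D1 NANOG peak of 8 tags 30 bp from its start (18.0). A peak of any H9 list lay near 42 receptors (32.3%, 24.9 to 40.8), beside 65.2% of other chromosome 11 genes and 62.6% of all genes. A peak of any NT2/D1 list lay near 107 (82.3%, 74.8 to 87.9), beside 80.9% and 81.5%. The NT2/D1 share is at the background, and starts were themselves recovered from the lists.

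Genes that carry the odorant signal were counted in the same way. Of 13 with a recovered start, 3, 6 and 7 had a peak within 20 kb for H9 SOX2, OCT4 and NANOG, and 6, 10 and 8 for NT2/D1 SOX2, OCT4 and NANOG. All genes gave 22.8%, 44.7% and 42.2% in H9, with 42.5%, 66.2% and 43.4% in NT2/D1. RIC8B, which assists the olfactory G protein, had peaks in all 6 lists, with 82 SOX2 tags at 7.43-fold in H9 and 17 OCT4 tags at 12.09-fold in NT2/D1. GNAL, the gene of that G protein, had peaks over its start in H9 OCT4, H9 NANOG and NT2/D1 OCT4. OMP, the olfactory marker protein of mature neurons, had a peak in NT2/D1 OCT4 alone, with 6 tags.

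Of 14 regulators of receptor choice, 8, 12 and 12 had a peak in H9 (57.1%, 85.7% and 85.7%) and 7, 13 and 5 in NT2/D1 (50%, 92.9% and 35.7%). The Wilson intervals lay above the share of all genes in H9 SOX2, OCT4 and NANOG and in NT2/D1 OCT4 (68.5% to 98.7%), and held it in NT2/D1 SOX2 and NANOG. EBF2, of a transcription factor family with a role in olfactory neurons, had peaks in all 6 lists, with 151 SOX2, 96 OCT4 and 106 NANOG tags in H9 and 31 OCT4 tags in NT2/D1. LHX2, a homeodomain factor that binds receptor enhancers, had 153, 105 and 150 tags in H9 (percentiles 96.1, 96.9 and 96.4) and no NANOG peak within 20 kb in NT2/D1. These genes also act in many other tissues.

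Other families next to or like the receptors were counted as well. Of 10 genes of other families that stand among the short-arm receptors, 7, 2 and 3 had a peak in H9 and 7, 9 and 5 in NT2/D1. HBG2 and HBE1 had peaks in all 6 lists, with the same tags and folds for both genes. In NT2/D1 these were 37 SOX2 tags at 25.48-fold (99.6), 45 OCT4 tags at 26.31-fold (99.8) and 16 NANOG tags at 7.75-fold (93.6). The H9 percentiles were 95.4, 95.1 and 93.7 for SOX2, OCT4 and NANOG. TRIM68, a ubiquitin ligase gene, had one in 4 lists and TRIM22, an antiviral gene, in 3. Of 7 sensory MRGPR receptor genes of chromosome 11, 0, 0 and 2 had a peak in H9 and 0, 2 and 1 in NT2/D1. Of 22 bitter taste receptor genes, which lie on other chromosomes, 5, 5 and 7 had one in H9 (22.7%, 22.7% and 31.8%) and 15, 15 and 14 in NT2/D1 (68.2%, 68.2% and 63.6%), among them TAS2R14 in 5 lists. Beside the shares of all genes given above, the bitter taste receptors were above in NT2/D1 SOX2 (interval 47.3 to 83.6, all genes 42.5%) and just below in H9 OCT4 (10.1 to 43.4, all genes 44.7%). Their other 4 intervals held the share of all genes.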

How the data were processed

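SOX2, OCT4 and NANOG were measured by ChIP-seq (SOLiD) in H9 and NT2/D1, and the 6 factor libraries of 8 samples were used through their peak lists. The 2 IgG samples, which have no peak list here, were not used by themselves. The members, lists, tests and alternatives were chosen with earlier results of these data known. MACS had been run per library, without pooling, at a p-value cutoff of 0.001, with a tag size of 50 and a model fold of 3 (5 for NT2/D1 OCT4), per the file headers. The build is hg19, per the submitters' processing notes. The aligner and MACS version are not given in the sources used here.

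In the deposited lists, tags are a raw count per peak. Fold enrichment is a ratio to the control computed by the authors. False discovery rates are percent values, per the file headers. The deposited score column had lost its name and was read as -10 log10 of p, since its lowest value and the cutoff fit. The gene on each side and its distance were added by the submitters, per the file headers.

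A start was recovered where at least 2 deposited distances pointed to 1 position within 2 bp (102 receptors), or from 1 distance and the strand in the RefSeq table (28). The recovery was tested on simulated peaks built with the same reading of sides and distances. That test checks the computation and cannot show that the submitters' distances follow this reading. Peaks were merged at an overlap of 1 bp. Shares carry 95% Wilson intervals and densities exact Poisson intervals. Python 3.11.15, pandas 2.3.3, NumPy 2.4.6, SciPy 1.17.1 and Matplotlib 3.10.9 were used.

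Named receptors are those at regions of 2 or more lists (up to 15), the 3 members of highest score in each list, and those within 1000 bp of a member (up to 15 by percentile). Also named are members of the gene lists with peaks in 3 or more lists and up to 3 others per list. Receptors named for the limit, for cluster ends, for peaks of 5 or 6 lists or as neighbours were chosen after their values were seen. Genes that the rule names are not all reported here. Promoter windows come from RefSeq (GRCh38.p14), whose coordinates were not combined with hg19.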

Additional observations from a re-analysis of the deposited data

How the results depend on the processing

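With a limit of 5000 bp, the share of chromosome 11 peaks near receptors was 0.602%, 0.449% and 0.620% for H9 SOX2, OCT4 and NANOG and 1.90%, 1% and 2.07% for NT2/D1 SOX2, OCT4 and NANOG, and the share of receptors with a peak was 3.85%, 3.85%, 7.69%, 19.2%, 15.4% and 20.8% in the same order. With the nearer gene only it was 9.23%, 8.46%, 14.6%, 31.5%, 33.8% and 30%. As a share of all receptor symbols of the RefSeq table, an alternative chosen after seeing the data, it was 8.29%, 9.39%, 13.3%, 28.2%, 34.8% and 25.4%. With the upper 50% of each list it was 9.23% for H9 SOX2, 13.1% for H9 NANOG and 27.7%, 25.4% and 22.3% in NT2/D1. At an FDR of at most 5%, which removes the strongest peaks of NT2/D1 SOX2 and NANOG, it was 9.23% for H9 SOX2, 8.46% for H9 OCT4, 36.9% for NT2/D1 SOX2 and 9.23% for NT2/D1 OCT4; in the last list the share of peaks became 1.86% and the median percentile 59.2. The low counts come from fewer peaks or shorter distances by construction.

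With NT2/D1 OCT4 and NANOG exchanged, the share of peaks was 4.15% and 3.05%, that of receptors 41.5% and 53.1%, and the NANOG median percentile 38.7. The 24 regions of 2 or more lists became 9 at 5000 bp, 13 in the upper 50%, 14 at the FDR limit, 14 with lists of equal length (19349 peaks) and 10 in the NT2/D1 lists alone. The H9 lists alone, also chosen after seeing the data like the NT2/D1 lists alone, gave 16, a reciprocal overlap of 50% gave 22 and summits within 200 bp gave 24. Of 130 recomputed values, 85 kept within their interval or 1.5 times the count and 45 did not. Pseudogene symbols (19 values) and starts with 2 or more votes only (6 values, chosen after seeing the data) moved none. No paired analysis was possible because each group has 1 sample. Most NT2/D1 members lie near the lowest tag count of their list, and the part of depth in the counts was not tested apart from the calling settings.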
